A study of Homo sapiens with 30 samples.

Results

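Cytosolic ribosomal protein genes encode the proteins of the cytoplasmic ribosome, the large subunit (RPL genes and the stalk genes RPLP1 and RPLP2) and the small subunit (RPS genes). Members were taken by gene symbol alone, from probe sets annotated with a single symbol, leaving out ribosomal S6 kinases, genes whose symbol ends in L, Y-linked genes and pseudogenes. That gave 52 genes of 19775, of which 32 belong to the large and 20 to the small subunit, and 111 probe sets of 54675. Of 77 genes in RefSeq that match the same symbols, 15 others appeared only in probe sets annotated with several symbols and 10 were not matched, and neither set was analysed here. The cells were A375, a human melanoma line that carries a BRAF driver mutation. They received 650 nM MLN4924 or 0.065% DMSO, the vehicle, for 1, 2, 4, 8 or 24 h, with 3 Affymetrix HG-U133 Plus 2.0 arrays in each of the 10 groups and separate DMSO arrays at each time. MLN4924 (pevonedistat) blocks the enzyme that activates NEDD8, a ubiquitin-like modifier needed by cullin-RING ubiquitin ligases. All groups come from 1 cell line, and whether replicates came from separate cultures is not in the labels, hence the p-values reflect the variation among these arrays alone, which may be technical. With 3 arrays in a group, the number of arrays limits the precision.

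Ribosomal protein mRNAs are among the most abundant in growing cells, and their products are needed in equal numbers, one copy of most proteins per ribosome. Most of them carry a 5′ terminal oligopyrimidine tract, a C at the start of the transcript followed by an uninterrupted run of C and T, which ties their translation to the mTOR pathway through LARP1. Excess ribosomal proteins are degraded, and several, RPL11 among them, can bind MDM2, the ubiquitin ligase of p53. Several ribosomal proteins are also known substrates of NEDD8.

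The transcript starts of 5 members whose probe sets come up below are shown because 3 of them carry the tract exactly at the annotated start and 2 do not. Each line gives 20 bases before the start and the first 20 bases of the transcript from RefSeq, build GRCh38.p14, with a tract of at least 5 bases that begins exactly at the start in capitals. All 5 lie on the plus strand: RPL41 at chr12:56116613-56116652, RPL35A at chr3:197950170-197950209, RPS21 at chr20:62387083-62387122, RPS28 at chr19:8321476-8321515 and RPS15 at chr19:1438376-1438415.
RPL41: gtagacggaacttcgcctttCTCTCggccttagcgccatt
RPL35A: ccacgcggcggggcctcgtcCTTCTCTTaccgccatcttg
RPS21: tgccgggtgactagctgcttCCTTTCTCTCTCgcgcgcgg
RPS28: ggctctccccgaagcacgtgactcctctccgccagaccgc
RPS15: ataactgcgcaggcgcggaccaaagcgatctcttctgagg
The annotated starts of RPS28 and RPS15 do not begin with such a tract. In RPS28, however, a run of C and T begins directly after the annotated first base, and in RPS15 one lies further on. Of the 52 members, 46 had an entry in the RefSeq promoter table. RPL7, RPL8, RPL23A, RPL30, RPL37 and RPS15A were not among them. In 34 of the 46 members (73.9%) at least 1 listed start began with C and then 4 letters of C or T, against 5.14% of all 27305 genes in the table. The letters CCGGAAG occurred on either strand within 250 bases before and 50 after the start in 17 members (37.0%), against 12.2% of all genes.

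The members were among the brightest genes of the array. Their median level over the 30 arrays was 13.18 in units of log2(signal + 32) after quantile normalization, against 6.61 for all genes. Of the 52, 43 were among the 100 genes with the highest mean, 30 among the highest 50, and 49 had a mean above 12. RPS23, a protein of the decoding centre, had the highest mean of 13.64, with 13.54 as its lowest and 13.67 as its highest array. RPL37A had a mean of 13.54 and RPS6, the S6 kinase substrate, one of 13.52. Signals of different probe sets also reflect probe affinity, so these values rank brightness on this array and not copies per cell. The other end of the range was held by RPL36A (5.88), the stalk protein gene RPLP2 (7.41) and RPL27A (9.04), for which the only probe sets with a single symbol were dim.

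Whether ribosomal protein mRNAs differed between MLN4924 and DMSO was tested at each time with limma over all 19775 genes, on quantile-normalized values with Benjamini-Hochberg adjustment at 0.05. After this scaling the family hardly moved: the median log2 difference of the 52 members was -0.002 at 1 h, -0.007 at 2 h, 0.013 at 4 h, 0.011 at 8 h and 0.021 at 24 h. Over all genes the medians at these times were -0.002, -0.014, -0.005, 0.004 and 0.003. The 224 other genes with a mean above 12 had medians of -0.006 at 8 h and -0.021 at 24 h. Quantile normalization makes the top of the range equal on all arrays, and members fill much of it (43 of the 100 highest genes). A shift shared by the members can therefore be removed by it, so these medians cannot decide whether there was one. Of the 52 members, 49, 48, 48, 44 and 38 lay within 0.1 of no change at 1, 2, 4, 8 and 24 h, against 59.7%, 51.3%, 49%, 38.5% and 29.7% of all genes. With a median standard error of 0.051, differences of this size were not resolved for most members.

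No member passed the test at 1, 2 or 4 h, where 0.00506%, 0.551% and 3.39% of all genes did. Without adjustment, 0, 1 and 1 members had a limma p under 0.05 at these times, and 1 member was called at 4 h when all probe sets of a gene were averaged. The highest log2 differences at 1 h belonged to RPLP2 (0.30, SE 0.15) and RPL27A (0.23, SE 0.20), and the lowest to RPL18 (-0.10, SE 0.08) and RPL14 (-0.09, SE 0.05). At 2 h RPL18 (0.13, SE 0.08) and RPL3 (0.10, SE 0.06) were highest, and RPLP2 (-0.49, SE 0.15) and RPL27A (-0.21, SE 0.20) lowest. At 4 h RPL36A (0.17, SE 0.14) and RPL35 (0.13, SE 0.10) were highest, and RPL27A (-0.45, SE 0.20) and RPLP2 (-0.23, SE 0.15) lowest. The 3 dim members thus supplied most of the extremes, with standard errors above those of the bright members.

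At 8 h RPL27A, a large subunit protein gene, was the only member called, against 15.2% of all genes. Its level was 9.18, 9.48 and 9.36 in MLN4924 arrays, against 8.19, 8.94 and 9.04 in DMSO arrays. All MLN4924 arrays were higher, and 1 DMSO array stood well below the others. The log2 difference was 0.62 (SE 0.20, limma adjusted p = 0.0412). Leaving out DMSO 8 h replicate 1 gave 0.35 (adjusted p = 0.304), leaving out MLN4924 8 h replicate 2 gave 0.55 (0.142) and leaving out MLN4924 8 h replicate 3 gave 0.61 (0.0953), none of which passed. Leaving out DMSO 8 h replicate 3 brought the count of called members to 2. The 3 others with an unadjusted p below the threshold at 8 h were RPLP2 (0.39), RPL41 (0.13) and RPL35 (0.23), with limma adjusted p-values of 0.0914, 0.0984 and 0.133.

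At 24 h 3 members passed, 2 higher and 1 lower, against 34.0% of all genes, 15.9% higher and 18.1% lower. RPL37, a zinc-binding protein of the large subunit, had levels of 13.18, 13.21 and 13.12 in MLN4924 arrays, against 13.40, 13.30 and 13.30 in DMSO arrays. It fell by 0.16 (SE 0.05, limma adjusted p = 0.0102), and its groups did not overlap. RPL41, a very short and basic peptide of the large subunit, had 13.38, 13.37 and 13.41 in MLN4924 arrays, against 13.24, 13.27 and 13.20 in DMSO arrays. It rose by 0.15 (SE 0.05, adjusted p = 0.0276). RPL19, a large subunit protein that takes part in contacts between the subunits, had 13.00, 12.97 and 13.00 in MLN4924 arrays, against 12.86, 12.81 and 12.87 in DMSO arrays, and rose by 0.15 (SE 0.05, adjusted p = 0.0362). In all 3 genes the groups lay apart, although the shifts were small. Single arrays decided these calls: leaving out MLN4924 24 h replicate 3 left 0 members called, leaving out MLN4924 24 h replicate 1 left 1, and 5 were called without the second DMSO array of 1 h or without either replicate 2 or 3 of MLN4924 at 2 h. RPL19 passed only if all 24 h arrays other than DMSO replicate 3 were kept. RPL41 needed replicates 1 and 3 of both 24 h groups, and RPL37 needed MLN4924 24 h replicate 3 and DMSO 24 h replicate 1.

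Members without a call at 24 h ranged from RPS25, a small subunit protein used by some viral internal ribosome entry sites, to the dim stalk gene RPLP2. RPS25 had 12.97, 12.92 and 12.82 in MLN4924 arrays, against 13.14, 13.15 and 13.12 in DMSO arrays, a log2 difference of -0.23 (SE 0.09, limma adjusted p = 0.0567). RPS19, whose loss causes Diamond-Blackfan anaemia, had 13.55, 13.53 and 13.54 against 13.37, 13.39 and 13.38 in DMSO arrays, a difference of 0.16 (SE 0.06, adjusted p = 0.0566). Both sets of groups lay apart without reaching the threshold on this scale. Under most other scalings RPS19 was called higher, as given below. In 20 of the 52 members the MLN4924 and DMSO arrays of 24 h did not overlap, which held for 44.6% of all genes.

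After quantile normalization none of the 7 measured members of a list of MDM2-binding ribosomal proteins was called at any time, with a median log2 difference of -0.012 at 24 h. The list was drawn up with results of these data known. As deposited its median was 0.216 at 8 h and 0.203 at 24 h. At 24 h RPS14 was called higher with arrays centred on housekeeping genes (0.31, limma adjusted p = 0.0253). RPS25 was called lower with cyclic loess (-0.19, 0.0462). RPL11, which acts with the 5S ribonucleoprotein, had 13.20, 13.19 and 13.15 in MLN4924 arrays of 24 h, against 13.22, 13.20 and 13.23 in DMSO arrays, and the groups overlapped only at their edges. RPS3 (-0.01), RPS7 (-0.03), RPS14 (0.08), RPS15 (0.03) and RPS27 (-0.01), all small subunit proteins, had 24 h log2 differences close to 0, and RPS25 is given above. Of the stalk, which recruits elongation factors, RPLP1 differed by -0.07 (SE 0.05) at 24 h and the dim RPLP2 by 0.33 (SE 0.15), and neither was called.

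Over time within one treatment the members were also nearly flat after quantile normalization. The median change of the 49 members above 12 at 24 h compared with 1 h was 0.025 in MLN4924 arrays and 0.013 in DMSO arrays, but 0.212 and -0.043 in the values as deposited. In MLN4924 arrays at 24 h compared with 1 h, 4 members passed, against 29.8% of all genes. RPL14 rose by 0.22, RPL12 by 0.19 and RPL29 by 0.17, and RPL37 fell by 0.16 (limma adjusted p = 0.000769, 0.00279, 0.0139 and 0.014). RPL14 stood at 12.64, 12.67 and 12.66 at 24 h, against 12.43, 12.43 and 12.45 at 1 h. The DMSO means at 1 and 24 h were 12.52 and 12.57 for RPL14 and 12.99 and 13.12 for RPL12. They were 12.79 and 12.85 for RPL29 and 13.29 and 13.33 for RPL37. Against DMSO at 24 h, RPL14, RPL12 and RPL29 differed by 0.09, 0.05 and 0.09 without a call. Whether the change from 1 to 24 h differed between treatments was not tested. In DMSO arrays over the same interval only RPL39, a short protein at the peptide exit tunnel, passed, against 18.4% of all genes: it had 13.44, 13.44 and 13.55 at 24 h, against 13.35, 13.31 and 13.32 at 1 h (0.15, SE 0.05, adjusted p = 0.0321 in limma). It was no longer called without any one of the DMSO 1 h arrays or without DMSO 24 h replicate 3, nor under the deposited values, where the difference was 0.08. The count was 2 in place of 1 without the first DMSO array of 24 h, without replicate 2 of MLN4924 at 4 h, and without either replicate 2 or 3 of MLN4924 at 24 h. No member passed in the 4 changes of the MLN4924 effect between neighbouring times, against 0.147%, 0.491%, 1.57% and 19.5% of all genes in time order. Between 1 and 2 h 2 members had an unadjusted limma p under 0.05, between 2 and 4 h 0, between 4 and 8 h 2 and between 8 and 24 h 2. In a fit over all probe sets, 9 of the 111 member probe sets changed between 8 and 24 h, against 12.4% of all probe sets.

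The near absence of change depended on how the arrays were scaled. The values as deposited had a common trimmed mean of 150.02, but the brightness of the top of the range differed by array, with the signal that 0.1% of probe sets exceeded running from 7791 in DMSO 8 h replicate 2 to 12938 in MLN4924 2 h replicate 3. The mean level of the members moved with it, from 12.44 to 13.14 on the same arrays, and after quantile normalization it lay between 12.75 and 12.84. Over the 30 arrays the members' mean as deposited had a Pearson r of 0.98 and a Spearman rho of 0.99 with that bright-end signal computed without any ribosomal protein probe set. The coefficient was 0.98 without the 2 arrays farthest from the median and 0.99 for deviations from the group means. Both quantities come from the same scan and the same scaling factor, so this is a description of the arrays. The ratio between the 3′ and 5′ probe sets of ACTB, which rises as RNA degrades, ran from 1.14 to 1.74, and its r with the members' mean was 0.38, or 0.16 without the 2 farthest arrays. Within treatments it was 0.05 over the MLN4924 arrays and 0.66 over the DMSO arrays, and the part of RNA quality in the members' level was not tested.

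**Figure D1:**
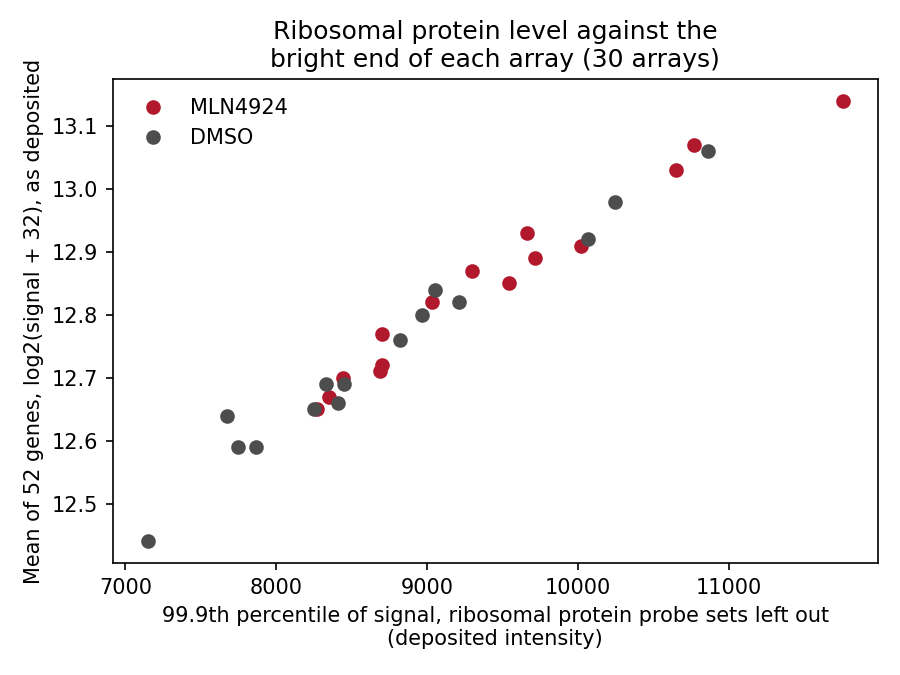
Mean level of the 52 genes in log2(signal + 32) as deposited (vertical axis) against the deposited intensity that 0.1% of probe sets exceeded, ribosomal protein probe sets left out (horizontal axis), 1 point per array, MLN4924 and DMSO arrays in different colours. The 30 arrays form 1 line from 12.44 to 13.14.

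In the deposited values the bright members varied as a block. Pairs of the 49 members above 12 had a median correlation of 0.93 in their deviations from group means over the 30 arrays, against 0.68 for pairs of the 224 other genes above 12, and 0.03 for the members after quantile normalization. The range of a bright member over the 30 arrays had a median of 0.79 as deposited, the smallest in RPS25 (0.41) and the largest in RPS19 (1.01), and a median of 0.20 after quantile normalization.

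**Figure D2:**
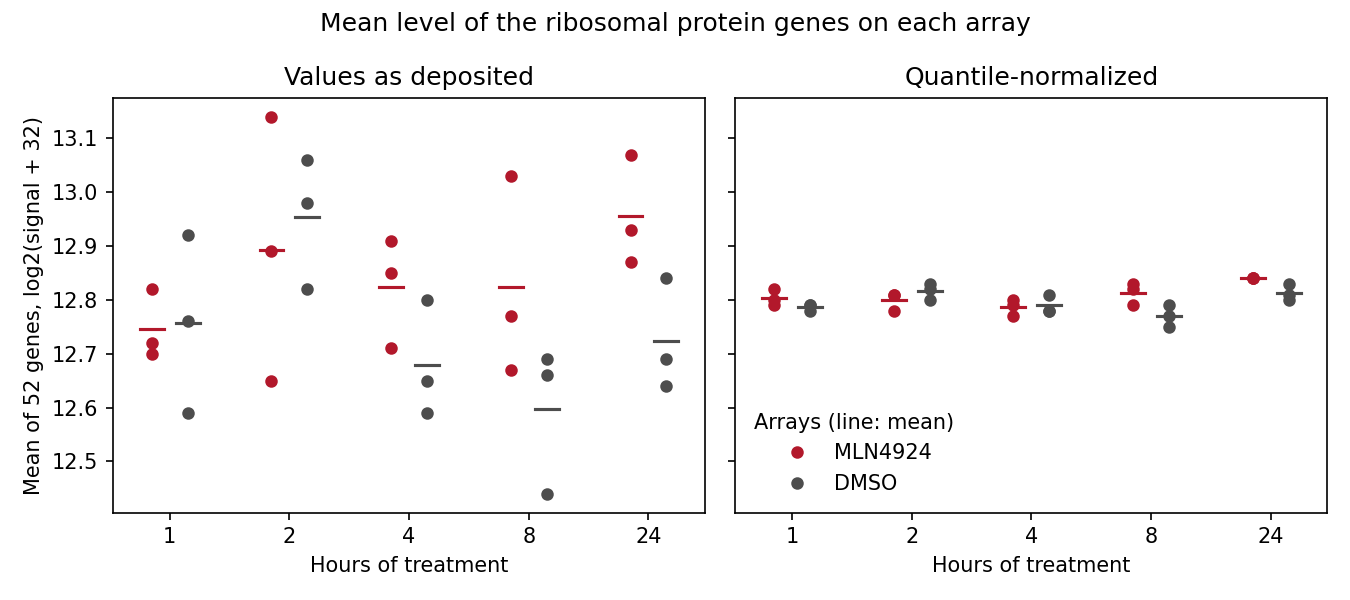
Mean level of the 52 genes on each array in log2(signal + 32) (vertical axis) by hours of treatment (horizontal axis), as deposited on the left and quantile-normalized on the right, with MLN4924 arrays left of DMSO arrays and a line at each group mean. As deposited, all 3 MLN4924 arrays of 24 h lie above all 3 DMSO arrays, and after quantile normalization all arrays fall between 12.75 and 12.84.

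At 24 h the members' mean as deposited was 12.87, 12.93 and 13.07 in MLN4924 arrays, against 12.64, 12.69 and 12.84 in DMSO arrays, and the groups did not overlap. At 8 h it was 12.67, 13.03 and 12.77 in MLN4924 arrays, against 12.66, 12.44 and 12.69 in DMSO arrays, and they did. The bright-end signal without ribosomal protein probe sets moved the same way at 24 h, with 9295, 9661 and 10769 in MLN4924 arrays, against 7673, 8329 and 9056 in DMSO arrays, and its part in the members' difference was not tested. The median member difference as deposited was -0.018 at 1 h, -0.056 at 2 h, 0.168 at 4 h, 0.230 at 8 h and 0.235 at 24 h, with 20, 5, 50, 51 and 51 of the 52 above 0. The other genes above 12 had medians of 0.005, -0.035, 0.129, 0.172 and 0.136. In the deposited values the median bright gene, member or not, thus lay above 0 from 4 h on.

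Centring each array on its median gave member medians of 0.348 at 8 h and 0.311 at 24 h, and centring on its 75th percentile 0.315 and 0.298. All 52 members were then above 0 at both times. Far fewer passed the limma test than lay above 0, and the median standard error of a member as deposited was 0.128. At 24 h 3 members were called higher as deposited (15.2% of all genes), 7 with median centring (18.1%) and 7 with the 75th percentile (17.6%), and 0 lower in each. Centring on 19 housekeeping genes, a list drawn up with results of these data known, gave a member median of 0.229 at 24 h, and 25 of the 52 (48.1% of them) were called higher, against 14.2% of all genes. The same centring gave 0.108 at 8 h with 0 called, against 3.86% of all genes. Of the housekeeping genes themselves, 5 were called higher and 5 lower at 24 h after quantile normalization. Cyclic loess, which also equalizes the arrays along the brightness range, gave 0.029 at 8 h and 0.086 at 24 h.

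**Figure D3:**
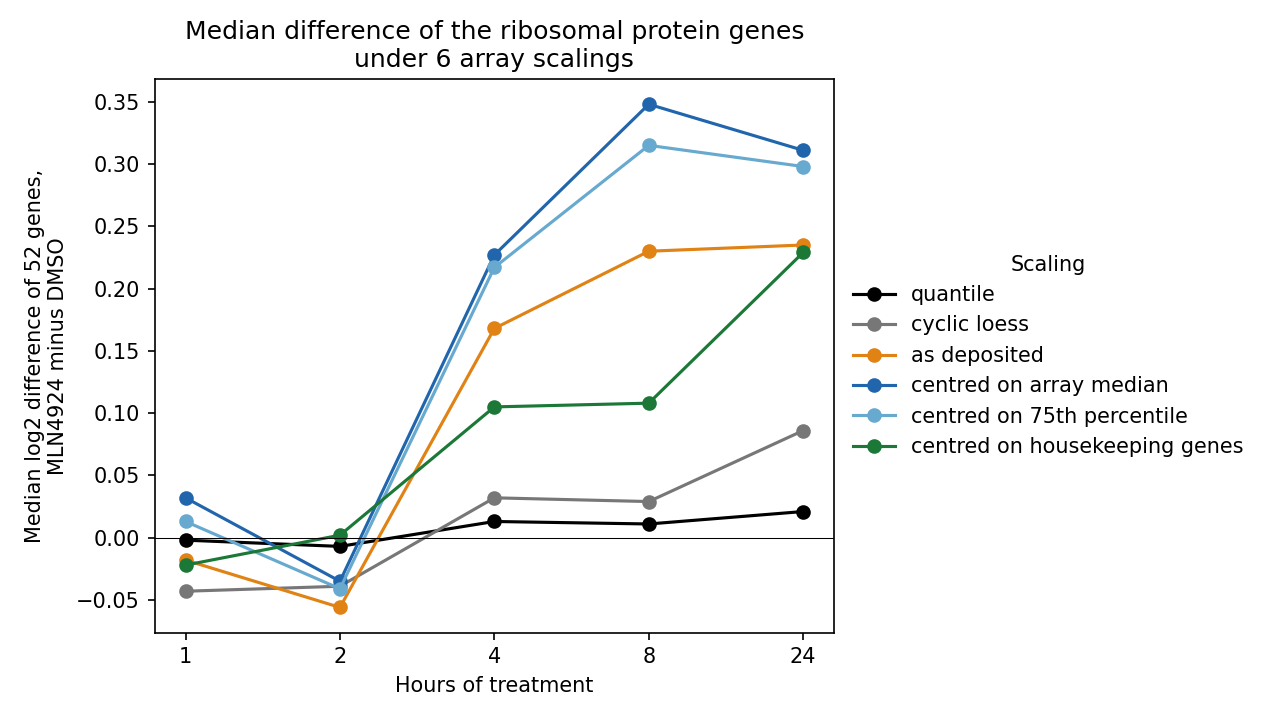
Median log2 difference of the 52 genes, MLN4924 minus DMSO (vertical axis), by hours of treatment (horizontal axis) under 6 array scalings, 1 line each. From 4 h on the scalings that shift a whole array (orange, blue, light blue, green) lie between 0.105 and 0.348, and those that equalize the brightness range (black, grey) between 0.011 and 0.086.

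Direction in single genes followed the scaling too. RPL41 was called higher under the deposited values (0.40, limma adjusted p = 0.041), median centring (0.48, 0.0261) and housekeeping centring (0.40, 0.0068) as well as after quantile normalization. RPL19 was called higher with median centring (0.40, 0.0413) and housekeeping centring (0.32, 0.00875), but not as deposited (0.33, 0.0616). In the quantile-normalized fit over all probe sets it was not called either (limma adjusted p = 0.0512). RPS19 was called higher as deposited (0.43, limma adjusted p = 0.0404) and with median (0.50, 0.0281), 75th percentile (0.49, 0.0278) and housekeeping centring (0.42, 0.00682). The same held with cyclic loess (0.27, 0.0213) and with quantiles estimated without the members (0.17, 0.0427). With arrays centred on the members' median RPS19 was not called (0.20, 0.117). RPL37 was called lower only with quantile scaling, and cyclic loess gave -0.09 (adjusted p = 0.23 in limma). Its brightest probe set differed by 0.07 as deposited (adjusted p = 0.729), 0.14 with median centring (0.446), 0.13 with the 75th percentile (0.482) and 0.06 with housekeeping centring (0.648). Relative to the other members it was among the lowest: with each array centred on the members' median, an alternative chosen after seeing the data, its difference was -0.16 (adjusted p = 0.164). Within each array of 24 h the mean of the 49 members above 12 as deposited exceeded that of the other genes above 12 by 0.78, 0.79 and 0.90 in MLN4924 arrays and by 0.62, 0.66 and 0.69 in DMSO arrays. The groups did not overlap in this difference between levels. It also varied at other times, with 0.50 in DMSO 1 h replicate 2, 0.69 in DMSO 2 h replicate 2 and 0.74 in MLN4924 2 h replicate 3. Of the 224 other genes above 12, 47 were called higher and 68 lower at 24 h after quantile normalization. The parts of those genes and of the bright-end signal in this difference were not tested. Among the members above 12, the mean of the large subunit genes differed from that of the small subunit genes by -0.08 to -0.03 over all 30 arrays as deposited. At 24 h it was -0.04, -0.05 and -0.03 in MLN4924 arrays, against -0.06, -0.08 and -0.06 in DMSO arrays, without overlap. The bright members varied as a block in these values, so this narrow range cannot decide whether the subunits responded alike, which was not tested. Total RNA of a culture cannot tell fewer cells from less RNA per cell, and neither can be told from a change in the RNA that the scaling divides out.

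The probe sets of one gene did not always go together. Of the 111 probe sets, 68 had a mean level above 12, 15 lay between 8 and 12 and 28 below 8. In a limma fit over all 54675 probe sets, 16 of the 111 were called higher and 2 lower at 24 h, against 12.2% and 12.6% of all probe sets. At 8 h 9 were called higher and 2 lower, against 5.11% and 4.64%, and none was called at 1, 2 or 4 h, against 0.0201%, 0.313% and 2.05%. The called ones were spread unevenly over the brightness range. At 24 h 14 of the 43 below 12 were higher and 0 lower, and of the 68 above 12 only 2 were higher and 2 lower. The shares of all probe sets called within the same brightness classes were not computed. Whether this spread is particular to the members is therefore not known. The medians at 24 h were 0.289 below 8, 0.140 between 8 and 12 and 0.021 above 12.

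**Figure D4:**
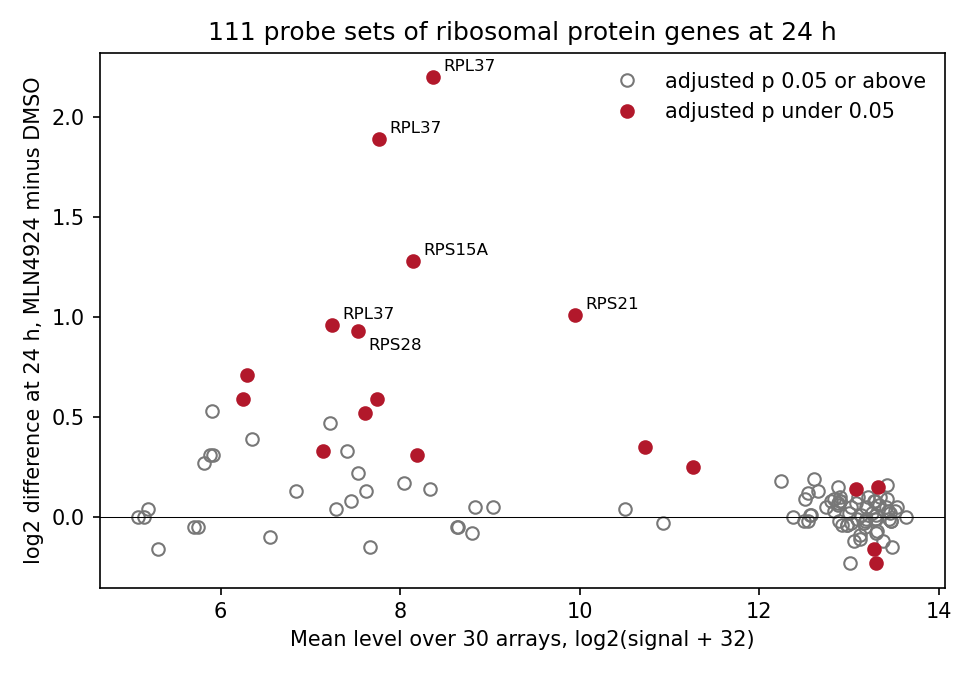
The log2 difference at 24 h, MLN4924 minus DMSO (vertical axis), against the mean level over 30 arrays in log2(signal + 32) (horizontal axis) for 111 probe sets of ribosomal protein genes, filled where the limma adjusted p is under 0.05. Probe sets above 12 lie between -0.23 and 0.19, while dimmer ones reach 2.20.

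The 14 dim probe sets called higher than in DMSO at 24 h belonged to 10 genes, each of which also had a probe set above 12. Those bright ones differed by -0.16 to 0.16. RPL37 was the extreme case. Its probe set 224767_at had 10.44, 10.42 and 10.53 in MLN4924 arrays of 24 h, against 8.10, 8.31 and 8.38 in DMSO arrays, and rose by 2.20 (SE 0.13, limma adjusted p = 2.4e-12). Probe set 224763_at had 9.62, 9.82 and 9.98 against 7.80, 8.08 and 7.87 in DMSO arrays and rose by 1.89 (SE 0.13, adjusted p = 3.78e-11), and 224766_at had 7.93, 7.94 and 8.01 against 6.90, 7.00 and 7.09 in DMSO arrays and rose by 0.96 (SE 0.10, 3.73e-08). The MLN4924 arrays lay far above the DMSO arrays on all 3, while the bright probe set 200092_s_at of the same gene fell by 0.16 (adjusted p = 0.0158 in this fit). At 8 h 224763_at had already risen by 0.83 (adjusted p = 0.000107) and 224767_at by 0.51 (0.011), whereas 224766_at differed by 0.01.

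**Figure D5:**
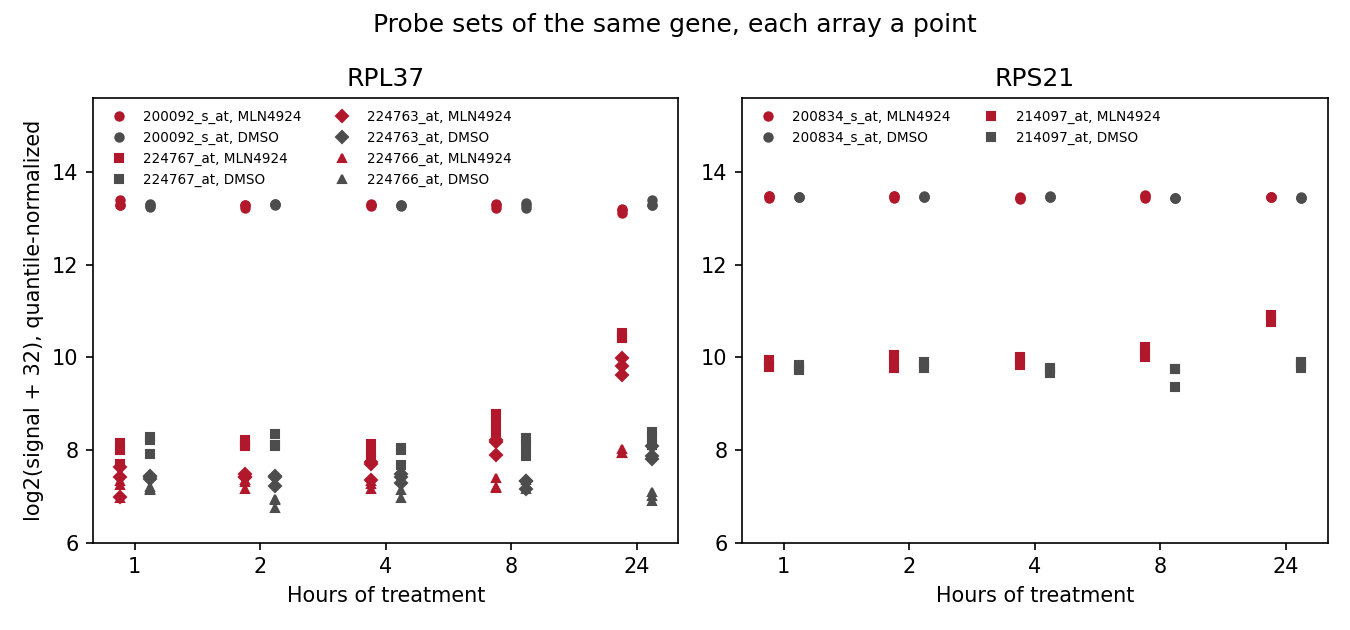
Level in log2(signal + 32) after quantile normalization (vertical axis) of each probe set of RPL37 (left) and RPS21 (right) by hours of treatment (horizontal axis), 1 point per array and MLN4924 left of DMSO. The bright probe sets stay near 13.3 and 13.5, and at 24 h the MLN4924 arrays of all 4 dim ones lie above their DMSO arrays by 0.96 to 2.20 on average.

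RPS15A, a small subunit protein, showed the same pattern. Its probe set 235309_at had 8.58, 8.84 and 8.63 in MLN4924 arrays of 8 h, against 8.20, 7.85 and 7.85 in DMSO arrays, and 9.33, 9.33 and 9.47 in MLN4924 arrays of 24 h, against 8.15, 8.10 and 8.05 in DMSO arrays. It rose by 0.72 at 8 h and by 1.28 at 24 h (limma adjusted p = 4.99e-05 and 9.65e-10), while the bright probe set of RPS15A stood at 12.97, 13.01 and 12.96 against 13.01, 13.04 and 13.02 in DMSO arrays.

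RPS21, a small subunit protein with a tract of 12 bases at its start (printed near the opening), had a second probe set, 214097_at, at 10.76, 10.91 and 10.89 in MLN4924 arrays of 24 h, against 9.91, 9.76 and 9.86 in DMSO arrays. It rose by 0.51 at 8 h and by 1.01 at 24 h (adjusted p = 0.000472 and 4.02e-09 in limma). The bright probe set had 13.47 on each of the 3 MLN4924 arrays, against 13.46, 13.44 and 13.44 in DMSO arrays. The annotated start of RPS28 lies just before a run of C and T. Its probe set 208903_at had 8.61, 8.30 and 8.31 in MLN4924 arrays of 24 h, against 7.42, 7.39 and 7.62 in DMSO arrays. This probe set was higher than in DMSO by 1.05 at 8 h and 0.93 at 24 h (adjusted p = 7.35e-06 and 6.67e-06 in limma). Its MLN4924 mean was 7.90 at 8 h and 8.41 at 24 h. Its DMSO mean was 6.86 at 8 h, against 7.15 to 7.48 at the other times. At 1, 2 and 4 h it differed by 0.45, 0.36 and 0.38 without a call. The bright probe set of RPS28 overlapped between groups, with 12.73, 12.65 and 12.66 against 12.67, 12.66 and 12.69 in DMSO arrays.

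Smaller differences above DMSO at 24 h were seen in 208902_s_at of RPS28 (0.59), 238026_at of RPL35A (0.59), 1563014_at of RPS15 (0.71) and 242451_x_at of RPS19 (0.52). Others were 214245_at of RPS14 (0.33), 221593_s_at of RPL31 (0.31) and both 221726_at (0.35) and 214042_s_at (0.25) of RPL22. From 8 to 24 h the mean of 214245_at went from 7.19 to 7.30 in MLN4924 arrays and from 7.28 to 6.97 in DMSO arrays. In DMSO arrays 221726_at itself rose from 10.54 at 1 h to 11.10 at 24 h. The level of 238026_at was 8.19, 8.32 and 8.01 in MLN4924 arrays, against 7.61, 7.51 and 7.64 in DMSO arrays. Of the dim probe sets called at 8 h, 7 were called higher at 24 h too. RPL14 (219138_at, 0.59) and RPS24 (1555878_at, 0.50) were higher than in DMSO at 8 h and were not called at 24 h. The mean of 1555878_at in MLN4924 arrays was 9.06 at 1 h and 8.91 at 8 h, against 8.60 and 8.42 in DMSO arrays. Its difference of 0.46 at 1 h was not called (limma adjusted p = 0.0935). At 8 h alone, 227722_at of RPS23 was called lower, by 0.36. The other probe set called lower at 8 h was 217747_s_at of RPS9, with a mean level above 12 (-0.26, SE 0.06, limma adjusted p = 0.00277). Its mean was 12.32 in MLN4924 arrays and 12.58 in DMSO arrays, while the probe set standing for RPS9 differed by -0.03. Above 12, the calls at 24 h besides RPL37 were 202649_x_at of RPS19 (0.14), RPL41 (0.15) and 212042_x_at of RPL7 (-0.23).

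Within each of these arrays the dim probe set was set against the bright one of the same gene. The level of the dim one minus that of the bright one was less negative in MLN4924 than in DMSO at 24 h for all 14. The groups did not overlap for 13. For 224767_at of RPL37 it averaged -2.71 in MLN4924 arrays and -5.07 in DMSO arrays, for 235309_at of RPS15A -3.60 and -4.92, and for 214097_at of RPS21 -2.62 and -3.60. These probe sets were chosen by their change on the same arrays, so this is a description with no test. All 14 were called under each of the 6 scalings. With each array centred on the members' median, 6 of the 14 were called, the 3 dim ones of RPL37, 235309_at, 214097_at and 208903_at, and 8 lost their call. The 8 were 238026_at (limma adjusted p = 0.0999), 1563014_at (0.118), 242451_x_at (0.264), 208902_s_at (0.17), 214245_at (0.846), 221593_s_at (0.704), 221726_at (0.259) and 214042_s_at (0.594). Which part of a transcript each probe set covers was not analysed here. Probe sets whose names hold _s or _x can share sequence with other transcripts or pseudogenes, which leaves their gene uncertain; this holds for most bright ones.

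Other genes of the translation machinery were described at 24 h after quantile normalization, in lists drawn up with results of these data known. Of 15 measured chaperones and assembly factors of ribosomal proteins, 13 rose and 2 fell, with a median of 0.599. NLE1, a factor of large subunit maturation, had 9.18, 8.74 and 9.24 in MLN4924 arrays, against 7.49, 7.31 and 7.54 in DMSO arrays, and rose by 1.61 (limma adjusted p = 2.29e-11). RPF2 and RRS1, which load the 5S ribonucleoprotein with RPL5 and RPL11, rose by 1.19 and 1.13. Of 40 translation factors, 19 rose and 2 fell (median 0.230), with EIF2S1 at 0.97, EIF3D at 0.85 and EIF3B at 0.77. Of 73 mitochondrial ribosomal protein genes, 36 rose and 7 fell (median 0.180), led by MRPL4 (1.20), MRPS31 (1.15) and MRPL49 (1.05). These lists are set against 34.0% of all genes called, 15.9% higher and 18.1% lower. As deposited their medians were 0.603 for the assembly factors, 0.331 for the translation factors and 0.231 for the mitochondrial genes, beside 0.235 for the members.

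Genes closest to the members in structure or in mRNA class were mixed. Of 8 ribosomal protein-like paralogs, 4 rose and 2 fell, and RPS27L, a paralog known as a p53 target, had 13.16, 13.09 and 12.93 in MLN4924 arrays of 24 h, against 12.43, 12.33 and 12.32 in DMSO arrays (0.70, limma adjusted p = 2.5e-09). RPL7L1 rose by 0.43 and RPL26L1 by 0.42. FAU, which encodes a ubiquitin-like protein fused to the small subunit protein eS30, rose by 0.17 (adjusted p = 0.0134). Of 9 other mRNAs with a terminal oligopyrimidine tract, 2 rose and 4 fell, among them HNRNPA1 (0.55), VIM (-0.41) and TMSB10 (-0.32), and the median of this list was -0.06 after quantile normalization but 0.174 as deposited. Of 13 regulators of ribosomal protein synthesis, 5 rose and 2 fell: the transcription factor MYC rose by 2.14, the RNA-binding protein gene LARP4 by 1.07, and the mTOR inhibitor DEPTOR fell by 1.19.

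Over the 10 group means, the non-member genes whose level ran most like the members' mean were BZW2 (Pearson r of 0.974), PRRC2B (0.952) and ELOB (0.95) after quantile normalization. As deposited they were TPT1 (0.996), FAU (0.989) and HUWE1 (0.986), a different set of names. These coefficients describe 10 points that share arrays and scaling.

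As a check of the cells, the melanocyte lineage markers SOX10 and MITF were present, with mean levels of 9.46 and 8.36, whereas PMEL, MLANA, TYR and TYRP1 had means between 5.59 and 6.33, below the median of all genes. At 24 h SOX10 differed by -1.08 and the calcium-binding protein gene S100B by -3.49, the 2 of 7 measured lineage markers that were called. The mean level of the 7 was 6.87, 6.64 and 6.63 in MLN4924 arrays of 24 h, against 7.49, 7.44 and 7.48 in DMSO arrays. Of 7 fibroblast markers 4 fell at 24 h, led by PDGFRA (-1.33), with list means of 5.94 to 6.03 in MLN4924 arrays and 6.38 to 6.55 in DMSO arrays. Of 6 epithelial markers 2 rose and 1 fell, among them KRT18 (1.19), with list means of 7.12 to 7.22 in MLN4924 arrays and 6.94 to 6.95 in DMSO arrays. Of 3 endothelial markers only CDH5 (0.50) was called, and of 3 blood markers 0 were. The part of these genes in the member values was not tested.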

How the data were processed

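The deposited values are linear signal intensities of 54675 probe sets on 30 arrays. Affymetrix Expression Console made them, per the submitters' processing notes, and neither version nor algorithm is stated there. The authors' intensity values have a mean of 150.02 on every array after trimming 2% at each end. Here they were quantile-normalized and taken as log2(signal + 32), an added constant that understates changes of dim probe sets. The brightest probe set with 1 symbol stood for a gene (19775 genes). limma 3.58.1 in R 4.3.3 fitted 10 group means over 30 arrays (20 residual degrees of freedom), with eBayes and two-sided tests, and all probe sets were fitted likewise. Figures and correlations used Python 3.11.15, scipy 1.17.1 and matplotlib 3.10.9. The members and lists were chosen with earlier results of these data known. Named members are those called, the extremes by change and level, and the stalk and MDM2 lists; named genes of other lists are the 3 largest called at 24 h, and named probe sets those called. Arrays were also left out in turn and other scalings, constants, filters and fits tried. The fit was tested on simulated data. No 2 arrays were duplicates (highest correlation 0.98979). Same-numbered replicates did not deviate together (15 correlations from -0.11 to 0.07), so numbers were not used as pairs.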

Additional observations from a re-analysis of the deposited data

Results flagged for a closer look

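In 9 probe sets of ribosomal protein genes the MLN4924 effect differed between 24 h and 8 h by a test of that difference in limma (8.11% of the 111, against 12.4% of all probe sets), and in 0 of the 52 genes represented by their brightest probe set (19.5% of all genes). The effect was larger at 24 h for all 3 dim RPL37 probe sets, by 1.69 for 224767_at (SE 0.18, adjusted p = 4.46e-07), 1.06 for 224763_at (SE 0.18, adjusted p = 0.000215) and 0.95 for 224766_at (SE 0.14, adjusted p = 2.9e-05). It was also larger for 1563014_at of RPS15 by 0.8, for 235309_at of RPS15A by 0.56, for 214097_at of RPS21 by 0.5 and for 214245_at of RPS14 by 0.42. For 217747_s_at of RPS9, a bright probe set, the effect was -0.02 at 24 h and -0.26 at 8 h, where it was called, a change of 0.24 (adjusted p = 0.049). For 1555878_at of RPS24 it was 0.05 at 24 h and 0.50 at 8 h, a change of -0.44 (adjusted p = 0.0198). At 1 h it was already 0.46, without a call.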

How the results depend on the processing

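Medians of the 52 members, in the order 1, 2, 4, 8 and 24 h and then DMSO 24 h minus 1 h, moved by more than the spread between arrays as follows. The deposited values gave -0.018, -0.056, 0.168, 0.23, 0.235 and -0.045, and median centring gave 0.032, -0.035, 0.227, 0.348, 0.311 and -0.057. The 75th percentile gave -0.041, 0.217, 0.315, 0.298 and -0.079 from 2 h on, and cyclic loess gave -0.043, -0.039, 0.032, 0.029, 0.086 and 0.078. Housekeeping genes gave -0.022, 0.105, 0.108 and 0.229 at 1, 4, 8 and 24 h. Averaged probe sets gave 0.035, 0.052 and 0.043 at 4 h, 24 h and over time in DMSO, probe sets without _x_at and _s_at names gave 0.071, 0.067 and 0.131 at 4, 8 and 24 h, centring on the members gave -0.028 and -0.01 at 2 and 4 h, the ACTB ratio as a covariate gave 0.011 at 2 h, and quantiles without ribosomal protein probe sets gave 0.034 over time in DMSO. The 24 h effect on RPL37 turned positive with the deposited values (0.07), median (0.14), 75th percentile (0.13) and housekeeping (0.06) centring, averaged probe sets (1.22) and probe sets without those names (2.2). Called members at 24 h numbered 7 with median or 75th percentile centring or a variance trend, 25 with housekeeping centring, 8 with a larger constant added to the signal, 0 centred on the members, 5 without low signals or with array weights, 11 for averaged probe sets, 9 without the named probe sets and 1 in a fit of the arrays compared. At 8 h they numbered 4 with median centring, 2 with the 75th percentile, a larger constant or a trend, 9 averaged, 7 without the named probe sets, and 0 with housekeeping or member centring, a constant of 1, all probe sets fitted, only the arrays compared, array weights or the ACTB covariate, and at 4 h averaging gave 1. Over time in DMSO they numbered 0 as deposited, with median, housekeeping or member centring or only the arrays compared, 2 without low signals, 5 averaged, and 3 with loess, a larger constant, either quantile mapping without members, array weights, a trend or without the named probe sets. For the change of effect from 4 to 8 h, median centring, the low-signal filter and the trend gave 1 each, and from 8 to 24 h the larger constant gave 1 and both probe-set choices 6. Called probe sets numbered 1 at 1 h with median centring or array weights, 7 and 4 at 8 h centred on the members or with only the arrays compared, and 42 and 6 at 24 h with housekeeping or member centring. Leaving out 1 array gave 0 to 5 called members at 24 h, 0 to 2 at 8 h, 0 to 2 over time in DMSO, 0 to 2 for the change from 4 to 8 h, and 0 to 1, 0 to 2, 8 to 13 and 14 to 21 called probe sets at 1, 2, 8 and 24 h, and moved the DMSO median between 0.008 and 0.028. With replicate numbers as a block, 3 members were called at 24 h, 1 at 8 h and 1 over time in DMSO, and 18 probe sets at 24 h and 13 at 8 h, and the block changed no other call count. The alternatives on all ribosomal protein probe sets, on the members' median and without DMSO 2 h replicates 1 and 2 were chosen after seeing the data. The cause of these shifts was not tested. Dim probe sets near the added 32 limit the precision of fold changes, which that constant understates.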
